A study of Rattus norvegicus with 8 samples.

Results

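Sult1a1, Sgcd, Prss22, Gpr158, Scn3b and Nrep were among the genes with the largest drop in signal when a constitutively active mutant of HIF1a was expressed in rat alveolar type II (ATII) cells. These 6 genes of 18166 measured were selected on the measured difference between the AdHIF1a and AdGFP wells, within a ranking of the 12 largest decreases, so their decreases are given here as a description, with no test. Each gene had 1 probe set with a single gene symbol. ATII cells are the epithelial cells of the lung that make surfactant and that can turn into flat type I cells in culture. HIF1a is the oxygen-regulated subunit of a transcription factor that is known mainly as an activator of genes for low-oxygen adaptation, and it binds DNA together with Arnt at sites with the core letters ACGTG or GCGTG.

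The AdGFP group was ATII cells of male Sprague Dawley rats given an adenovirus for green fluorescent protein, and the AdHIF1a group was cells of the same rats given an adenovirus for the mutant HIF1a. There were 4 rats, each handled on its own extraction day, and each rat gave 1 well per virus, which makes 8 arrays in 4 pairs. All wells shared the exposure to virus (multiplicity of infection 20, for 3 h, with 2% fetal bovine serum), the gel of 80% collagen and 20% Matrigel, 5% rat serum and RNA collection at 24 h, and the sources used here state no age for the rats. The virus-driven mutant is made without regard to oxygen, so the comparison is one of active HIF1a against a control virus and not of low against normal oxygen. The surfactant transcripts Sftpc (log2 signal 12.34 in AdGFP wells) and Sftpb (11.06) were high, as the label of the cells calls for, and the type I marker Ager (12.55) and the airway secretory marker Scgb1a1 (12.65) were high too. The rat Hif1a probe set was not raised but lower in the wells labelled AdHIF1a (11.12 ± 0.13 to 10.64 ± 0.12, SD, n = 4). It was lower in all 4 rats (limma adjusted p = 0.00624). Whether that probe set can read the transgene is unknown, as the sources used here do not name its species, so it is no check of the labels. The array medians over all probe sets lay between 5 and 5.2, and their upper quartiles between 7.62 and 7.68.

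The 6 genes have no common function. Sult1a1 is a cytosolic sulfotransferase that adds sulfate to phenols, among them drugs and hormones. Sgcd is delta-sarcoglycan, a membrane protein of the dystrophin complex that ties the cytoskeleton to the matrix and is best known in muscle. Prss22, also called tryptase epsilon, is a trypsin-like protease of airway epithelium that can activate the urokinase precursor. Gpr158 is a class C receptor that holds the regulator Rgs7 with Gnb5 at the membrane, and Scn3b is a beta subunit that tunes the gating of voltage-gated sodium channels. Nrep, also called P311, is a small intracellular protein linked to TGF-beta and to the contractile state of fibroblasts.

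Promoter windows from RefSeq (build GRCr8) were at hand for 4 of the 6 genes, Sult1a1, Sgcd, Gpr158 and Nrep. The core letters of the HIF site, ACGTG or GCGTG on either strand, were searched in the 250 bases before each start. They were found in 2 of the 4 windows, against 36.7% of all 33469 windows. The windows of Sgcd and Nrep are shown because they hold these letters, in capitals, and that of Sult1a1 because this gene had the largest decrease and its window lacks them. All are written in the direction of the gene.

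Sgcd (chr10:32254941-32255190, minus strand): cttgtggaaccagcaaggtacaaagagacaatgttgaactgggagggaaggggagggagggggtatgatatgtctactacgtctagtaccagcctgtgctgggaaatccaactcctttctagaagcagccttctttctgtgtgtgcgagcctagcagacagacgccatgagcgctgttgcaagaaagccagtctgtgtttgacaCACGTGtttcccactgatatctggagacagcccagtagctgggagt

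Nrep (chr18:25320743-25320992, minus strand): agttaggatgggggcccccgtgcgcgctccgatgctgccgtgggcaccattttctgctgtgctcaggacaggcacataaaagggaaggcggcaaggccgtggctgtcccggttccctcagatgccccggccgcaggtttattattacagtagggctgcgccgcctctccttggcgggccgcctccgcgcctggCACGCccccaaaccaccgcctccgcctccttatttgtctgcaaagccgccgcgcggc

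Sult1a1 (chr1:190706113-190706362, minus strand): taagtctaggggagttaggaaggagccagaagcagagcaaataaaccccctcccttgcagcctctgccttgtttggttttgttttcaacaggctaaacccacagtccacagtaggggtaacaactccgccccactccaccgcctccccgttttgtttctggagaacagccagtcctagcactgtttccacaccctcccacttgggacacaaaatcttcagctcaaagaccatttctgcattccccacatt

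In the Sgcd window the capitals mark CACGTG, 46 to 41 bases before the start. This palindrome holds ACGTG on both strands, so its 2 matches overlap at 1 place, and 5.59% of all windows have CACGTG. In the Nrep window the capitals mark CACGC, 57 to 53 bases before the start, which is GCGTG on the other strand, a motif present in 25.9% of windows. The 250 bases before Gpr158 (chr17:88742573-88742822, plus strand) held neither core. GC content was 66.4% in the Nrep window, 61.6% for Gpr158, 51.6% for Sgcd and 51.2% for Sult1a1, against a median of 51.2% over all windows. A letter match is a description of these windows and not a sign of binding.

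Sult1a1 was among the well-expressed genes of the control cells and had the largest decrease of all 18166 genes. Its log2 signal in the AdGFP wells of rats 1 to 4 was 10.62, 10.79, 10.48 and 10.95, and in their AdHIF1a wells 8.52, 7.09, 7.90 and 6.24. The control wells lay within 0.47 of each other and the AdHIF1a wells spread over 2.28, with rat 4 lowest and rat 1 highest, and the groups did not overlap. The mean went from 10.71 ± 0.20 to 7.44 ± 0.99 (SD, n = 4), a difference of -3.27 ± 0.39 (moderated SE, 4 rats), or 9.66-fold. The size depended on the rat: the signal was 4.29-fold lower in rat 1, 5.98-fold in rat 3, 13-fold in rat 2 and 26.2-fold in rat 4. It ranked 1st of all genes by decrease in rats 2, 3 and 4 and 10th in rat 1. The spread of Sult1a1 between AdHIF1a wells was larger than that of 99.9% of genes, while its spread between AdGFP wells was at the 75.1th percentile.

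Nrep kept a clear signal after AdHIF1a. Its AdGFP signals were 11.10, 10.83, 11.04 and 10.87 in rats 1 to 4, and its AdHIF1a signals 9.08, 8.51, 9.09 and 7.98. The lowest control well stayed 1.74 above the highest AdHIF1a well. The mean went from 10.96 ± 0.13 to 8.66 ± 0.53 (SD, n = 4), a difference of -2.29 ± 0.16 (SE), or 4.91-fold. After this decrease Nrep was still at the 76.3th percentile of all genes in the AdHIF1a wells, down from the 96.8th.

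Prss22 had the most even control level. Its AdGFP signals were 9.60, 9.68, 9.65 and 9.58, a range of 0.10, and its AdHIF1a signals were 7.12, 7.38, 7.55 and 6.65 in rats 1 to 4. Only 5.54% of genes had a control SD as small as that of Prss22 or smaller. The groups were separated by 2.03, the widest gap of the 6 genes. The mean went from 9.63 ± 0.05 to 7.17 ± 0.39 (SD, n = 4), a difference of -2.45 ± 0.14 (SE), or 5.47-fold. Prss22 also had the most even response, from 4.29-fold in rat 3 to 7.62-fold in rat 4, and it ranked 2nd of all genes in rat 1, 5th in rat 3, 7th in rat 4 and 27th in rat 2.

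Gpr158 was expressed at a middle level in control cells. The AdGFP wells of rats 1 to 4 gave 7.79, 7.95, 7.63 and 7.95, and the AdHIF1a wells 5.93, 5.43, 5.43 and 4.84. Rat 4 was lowest and rat 1 highest after AdHIF1a, as for Sult1a1, and the groups lay 1.70 apart. The mean went from 7.83 ± 0.15 to 5.41 ± 0.45 (SD, n = 4), a difference of -2.42 ± 0.19 (SE), or 5.36-fold, with 3.63-fold in rat 1 and 8.63-fold in rat 4. The AdHIF1a well of rat 4 was below the median of all probe sets on its array, so the last fold is not an exact size.

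Sgcd varied between rats in both groups. Its AdGFP signals were 7.64, 8.19, 7.50 and 7.50, with rat 2 above the others, and its AdHIF1a signals were 5.62, 4.94, 5.57 and 4.46. The mean went from 7.71 ± 0.33 to 5.15 ± 0.55 (SD, n = 4), a difference of -2.56 ± 0.23 (SE), or 5.90-fold. The AdHIF1a wells of rats 2 and 4 were below the median of all probe sets on the arrays, where low signals lie close to background, so the folds of 9.51 in rat 2 and 8.22 in rat 4 are not exact sizes.

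Scn3b differed from the other 5 genes in its spread. The AdGFP wells gave 7.02, 7.26, 6.43 and 7.45 and the AdHIF1a wells 4.88, 4.68, 4.94 and 4.62. Here the control wells varied, over 1.02 with rat 3 lowest, while the AdHIF1a wells lay within 0.32 of each other. All 4 AdHIF1a wells were below the array medians, where low signals are poorly resolved. The mean went from 7.04 ± 0.44 to 4.78 ± 0.15 (SD, n = 4), a difference of -2.26 ± 0.20 (SE), or 4.79-fold. The fold was lowest in rat 3 (2.81-fold), the rat with the lowest control signal, and highest in rat 4 (7.11-fold).

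**Figure D1:**
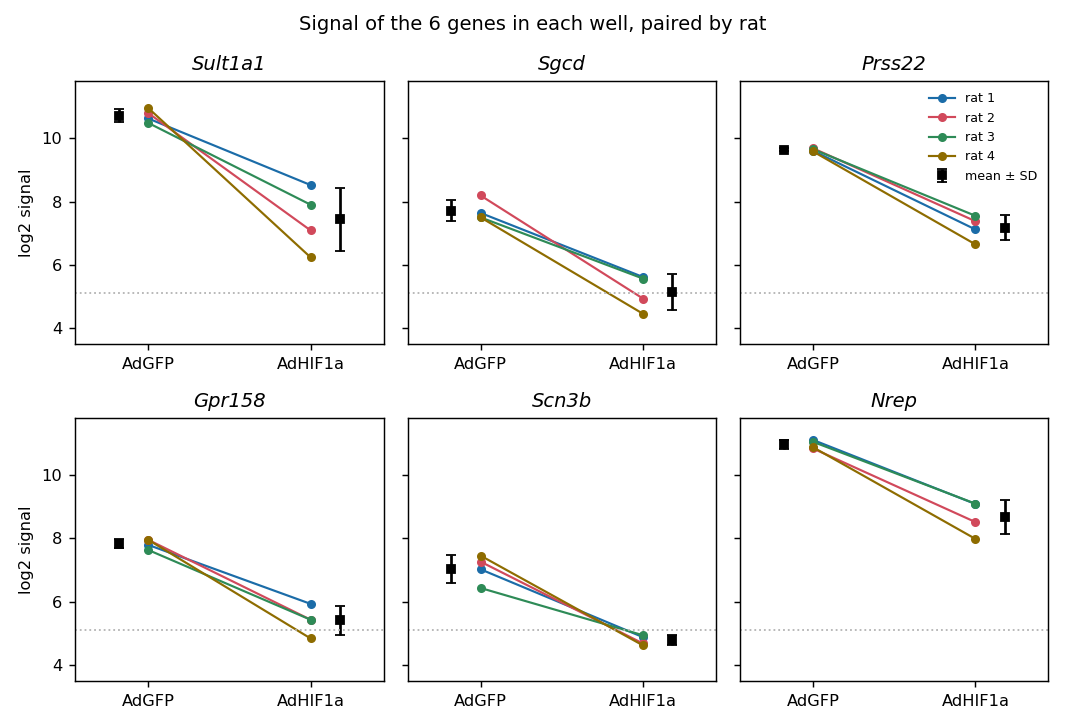
Log2 signal of each of the 6 genes in the AdGFP and AdHIF1a wells, with a line for each of the 4 rats, black squares for the group mean ± SD and a dotted line at the mean of the array medians over all probe sets. Each gene is lower in the AdHIF1a well of all 4 rats, the AdHIF1a wells of Sult1a1 spread widest (6.24 to 8.52), and those of Scn3b all lie below the dotted line.

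Rats 2 and 4 showed the larger decreases. The median within-rat difference over the 6 genes was -2.06 in rat 1, -2.55 in rat 2, -2.02 in rat 3 and -2.98 in rat 4, and rat 4 gave the largest decrease for 5 genes and rat 2 for Sgcd. Rats 2 and 4 also led over all 2098 genes called lower, with medians of -0.46, -0.65, -0.49 and -0.71, where called means an adjusted p under 0.05 in the limma fit over all genes; 11.5% of all genes were called lower and 8.68% higher. The 1576 genes called higher had medians of 0.59, 0.59, 0.45 and 0.60, with rat 3 lowest, and the 315 of them that were at least 2-fold higher had medians of 1.43, 1.5, 1.27 and 1.64, where rats 2 and 4 led as well. The median over all 18166 genes lay between -0.04 and 0 in each rat. The AdHIF1a wells were more spread than the AdGFP wells for 5 of the 6 genes, Scn3b being the exception. Over all genes this was so for 56.2%, and for the other 6 genes among the 12 largest decreases it was so for 4. The rat differences were not tested, since 1 well per virus and rat leaves no error within a rat.

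**Figure D2:**
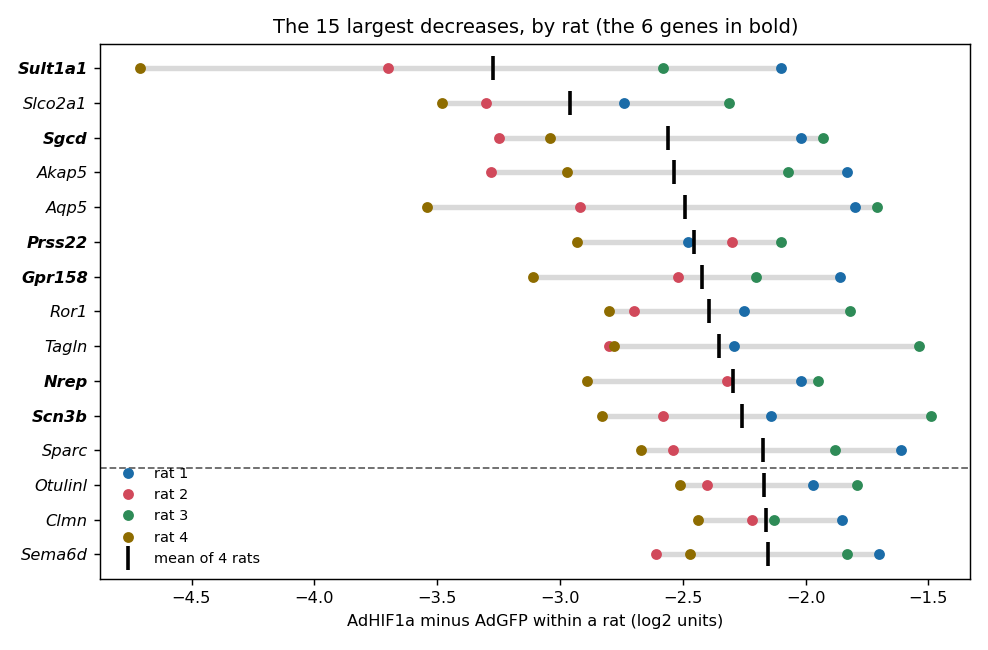
Within-rat differences (AdHIF1a minus AdGFP, log2 units) for the 15 largest decreases among called genes, with a point for each of the 4 rats, a grey bar over their range and a black tick at the mean, the 6 genes in bold and a dashed line under the 12th gene. Sult1a1 has the widest range, from -2.10 in rat 1 to -4.71 in rat 4, and the means step down evenly across the dashed line.

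By mean difference Sult1a1 ranked 1st, Sgcd 3rd, Prss22 6th, Gpr158 7th, Nrep 10th and Scn3b 11th. The other genes of the 12 were Slco2a1, Akap5, Aqp5, Ror1, Tagln and Sparc. The ranking was dense from Sgcd on. Nrep (-2.29), Scn3b (-2.26) and Sparc (-2.17) were the last inside it, and Otulinl (-2.17), Clmn (-2.16) and Sema6d (-2.15) the next outside. Steps this small are below the SEs of these genes, which ran from 0.11 to 0.20. From Sgcd (-2.56) to Tagln (-2.35) the steps between neighbours were also below the SEs, which ran from 0.14 to 0.30. Neighbours from Sgcd on thus cannot be put in order. All 6 genes were lower in each of the 4 rats, as were 20.4% of all genes, a count that the choice of the genes fixes.

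**Figure D3:**
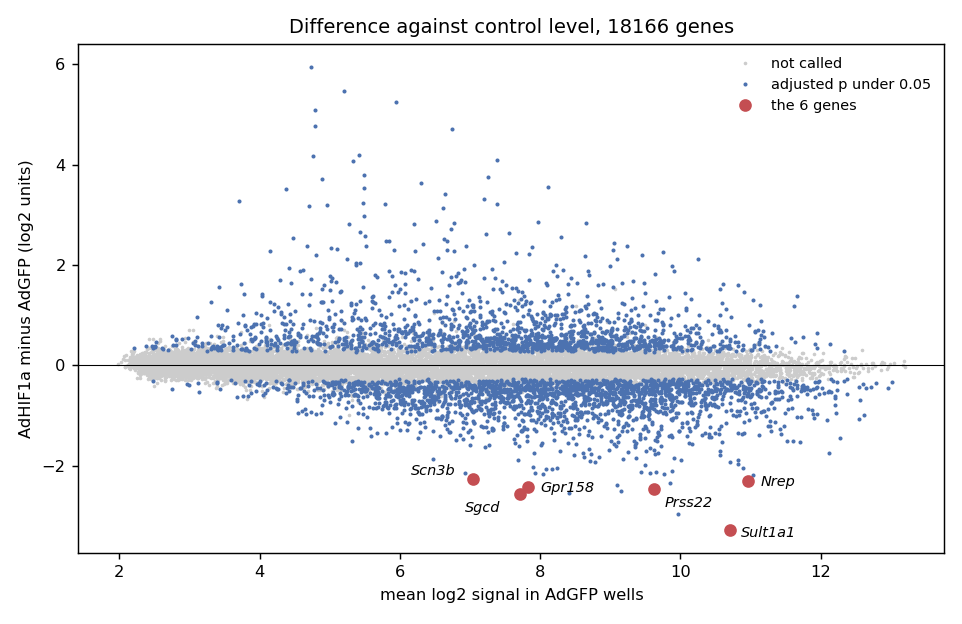
Difference between AdHIF1a and AdGFP (log2 units) against the mean log2 signal in AdGFP wells for 18166 genes, with called genes in blue, the others in grey and the 6 genes in red. The 6 genes lie along the lower edge of the cloud at control levels from 7.04 to 10.96, and Sult1a1 (-3.27) is the lowest point.

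Among the 904 genes whose control signal was within 0.5 of Sult1a1, it ranked 1st by decrease, and Sgcd and Scn3b ranked 1st among 2125 and 1828 genes near their own levels. Nrep was 2nd of 754 genes, Gpr158 2nd of 2182 and Prss22 3rd of 1855. The genes were chosen by this same difference, so high ranks near their own levels follow from the choice.

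The likeness of patterns was measured as the root mean square (RMS) difference over the 8 arrays, after the mean of each gene was subtracted. The arrays share the virus contrast by which the genes were chosen, so genes of similar decrease come close by construction. For Scn3b the nearest gene of all was Olfml2a (0.14 log2 units), followed by Sema6d (0.21). Sparc (0.16) and Tlcd5 (0.20) were nearest to Gpr158, and Clmn (0.21) and Pon3 (0.24) to Nrep. The nearest genes to Prss22 were Nrep (0.25) and Bgn (0.26), and to Sgcd they were Gpr158 (0.25) and Nrep (0.29). Sult1a1 had no close neighbour: Sgcd (0.50) and Aqp5 (0.52) were the nearest, and its distances to the other 5 genes ran from 0.50 to 0.74.

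The relatives and partners of the 6 genes, and transcriptional repressors, were taken from 7 lists that hold none of the 6. Of 144 different genes measured, 28 were lower (19.4%) and 21 higher (14.6%), and the median difference was 0. Over all genes the shares were 11.5% and 8.68%. With each array centred on its median, which shifts every difference by -0.08, the list genes gave 30 lower and 12 higher, so that 28.6% of the called genes were higher in place of 42.9%, and all genes gave 2161 lower and 936 higher (30.2% higher in place of 42.9%). The higher list genes numbered 11 without rat 2, and all genes gave 1266 lower and 929 higher without rat 2 and 1196 and 921 without rat 4.

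Of 20 measured sulfation genes, set beside Sult1a1, 1 was lower and 0 were higher, with a median difference of -0.01, and 9 of the 20 had control signals below the array medians. Papss2 (-0.55) and Sult1c2a (0.35), named after their values were seen, had an unadjusted p under 0.05 but were not called (limma adjusted p = 0.0976 and 0.116). The list gave 2 lower and 1 higher without rat 1, and 2 lower with centred arrays. The lower gene was Tpst1, which sulfates tyrosines in secreted proteins and fell by 0.69 ± 0.10 from a log2 signal of 5.90 (limma adjusted p = 0.00399). None of 9 other sulfotransferases was called (Sult1c2a had the only unadjusted p under 0.05), but their control signals of 2.27 to 5.2 left little room for a decrease. Papss1, which makes the sulfate donor for Sult1a1, had a control signal of 8.94 and differed by -0.15 ± 0.08 (adjusted p = 0.229).

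Among 19 measured genes of the dystrophin complex, 4 were lower and 2 higher, with a median difference of -0.08. The laminin subunit gene Lamb2 fell by 1.01 ± 0.10 (2.01-fold, adjusted p = 0.000811). Dag1, the dystroglycan that binds laminin outside the cell, fell by 0.62 ± 0.09, and Utrn, the utrophin that stands in for dystrophin outside muscle, by 0.83 ± 0.16 (adjusted p = 0.00329 and 0.00975). The scaffold genes Sntb1, a syntrophin, and Dtnb, a dystrobrevin, rose by 0.70 ± 0.09 and 0.46 ± 0.08 (adjusted p = 0.00203 and 0.00932), and the call of Dtnb was lost without rat 2 (adjusted p = 0.0545). Another syntrophin, Sntb2, fell by 0.69 ± 0.14 (limma adjusted p = 0.0119) and is named after its values were seen. The other measured sarcoglycans, Sgca, Sgcb and Sgcz, were not called. Of these Sgcb (control signal 6.97) differed by -0.24 ± 0.09 (adjusted p = 0.122, the only one with an unadjusted p under 0.05). Dystrophin itself, Dmd, had a signal of 5.04, at the level of the array medians, and was not called.

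Among extracellular serine proteases and their inhibitors, 9 of 30 fell and 1 rose. The largest of these decreases was in Prss23, a secreted protease, which went from 9.66 ± 0.16 to 8.23 ± 0.18 (SD, n = 4), a fall of 1.43 ± 0.12 (2.70-fold, limma adjusted p = 0.000385). Tmprss2, a membrane-bound protease of lung epithelium, fell by 1.26 ± 0.09 (adjusted p = 0.000278). Plau, the urokinase whose precursor Prss22 can cleave, fell by 1.23 ± 0.12 (adjusted p = 0.000689), and its AdGFP signal of 10.02 ± 0.25 did not overlap with 8.79 ± 0.21 in AdHIF1a wells. Tmprss4, another membrane protease, rose by 0.43 ± 0.12 (adjusted p = 0.0444), a call lost without rat 1, 2 or 4 (adjusted p = 0.121, 0.0711 and 0.171). The median of the list was -0.04, since 20 of its genes were not called, among them the epithelial protease St14 (11.64 to 11.70).

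Class C receptors and genes of the R7 complex, which Gpr158 serves, were lower for 3 and higher for 3 of 17 measured. Gpc4, a heparan sulfate proteoglycan that binds Gpr158 at synapses, fell by 1.27 ± 0.15 from 7.78 (2.42-fold, adjusted p = 0.00161). The orphan receptors Gprc5a and Gprc5c fell by 0.49 ± 0.08 and 0.45 ± 0.09 (adjusted p = 0.00530 and 0.0111), and the call of Gprc5c was lost without rat 2 or 4 (adjusted p = 0.0577 and 0.0606). Rgs11, a regulator of G proteins in the family of Rgs7, rose by 1.46 ± 0.19, the G protein subunit gene Gnao1 by 0.47 ± 0.09 and the membrane anchor gene Rgs7bp by 0.29 ± 0.08 (adjusted p = 0.00222, 0.00939 and 0.0460). The call of Gnao1 was lost without rat 2 (0.0510), and that of Rgs7bp without any 1 rat (adjusted p = 0.0801 to 0.148). The list's higher genes numbered 1 without rat 2 and 1 with centred arrays. Gpr179, a receptor of the same small group as Gpr158, had a control signal of 4.54 and was not called. Rgs7, the partner of Gpr158, had a low control signal of 3.21 and differed by 0.33 ± 0.10, above 0 in 4 of 4 rats (unadjusted p = 0.0108, limma adjusted p = 0.0527).

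Of 18 measured sodium channel genes and partners, 3 were lower and 1 was higher, with a median of -0.02. Fgf11, an intracellular FGF-like factor of the family that binds sodium channels, rose by 1.61 ± 0.14 from 4.92 (3.05-fold, limma adjusted p = 0.000500). Ank3, an ankyrin that anchors these channels to the membrane skeleton, fell by 0.67 ± 0.08, and Nedd4l, a ubiquitin ligase that removes sodium channels from the membrane, by 0.53 ± 0.08 (adjusted p = 0.00167 and 0.00338). Scn4a, a pore-forming subunit, fell by 0.33 ± 0.08 from 5.45 (adjusted p = 0.0234), a call lost without rat 2, 3 or 4 (0.104, 0.0829 and 0.103) and without the replicate block (0.174). The 8 measured pore-forming subunits all had control signals of 5.45 or less, and Scn2b and Scn4b, the other measured beta subunits, were at 4.27 and 4.36.

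Of 15 measured TGF-beta ligands, receptors and readouts, set beside Nrep, 6 fell and 2 rose. Tgfb2 fell by 1.03 ± 0.14 from 11.66 ± 0.06 (SD, n = 4), and Tgfbr1, the signalling receptor, by 0.80 ± 0.08 (adjusted p = 0.00303 and 0.000968). Tgfbi, a matrix protein named for its induction by TGF-beta, fell by 1.25 ± 0.14 (2.37-fold, adjusted p = 0.00136). The ligand Tgfb3 rose by 1.80 ± 0.13 from 5.65 (3.49-fold) and the co-receptor Tgfbr3 by 1.26 ± 0.12 (adjusted p = 0.000230 and 0.000694). Tgfb1 did not pass the test (0.01 ± 0.09, adjusted p = 0.956). The list's median was -0.06.

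Transcriptional repressors were the list with most higher genes, 12 of 25 measured, with 2 lower and a median of 0.23. Over all genes 8.68% were higher and 11.5% lower, and the list was chosen with earlier results of these data known. Rcor2, a partner of histone demethylase in the CoREST complex, went from 5.48 ± 0.08 to 9.01 ± 0.13 (SD, n = 4), a rise of 3.53 ± 0.09 or 11.6-fold (limma adjusted p = 3.29e-06), with within-rat differences of 3.69, 3.45, 3.34 and 3.64. Rcor2 had the smallest adjusted p of the list, and that choice favours a gene with even differences between rats. Over the 315 genes at least 2-fold higher, the median was largest in rat 4 (1.64). Bhlhe41, a repressor that binds CACGTG, rose by 1.70 ± 0.13, and Cited2, which limits HIF by competing for its coactivator, by 1.33 ± 0.13 (adjusted p = 0.000278 and 0.000694). Rest, the repressor of neuronal genes to which CoREST proteins bind, is named after its values were seen; it rose by 0.71 ± 0.08 (adjusted p = 0.00161). The lower genes were Mxd4, a Max partner, and Hey1, a Notch target, which fell by 0.72 ± 0.11 and 0.72 ± 0.14 (adjusted p = 0.00430 and 0.0113). The number of higher repressors was 6 with centred arrays, 6 without rat 2, 7 without rat 3, 7 without rat 4, and 7 with the variance prior taken over all probe sets. No relation between these repressors and the 6 genes was tested.

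**Figure D4:**
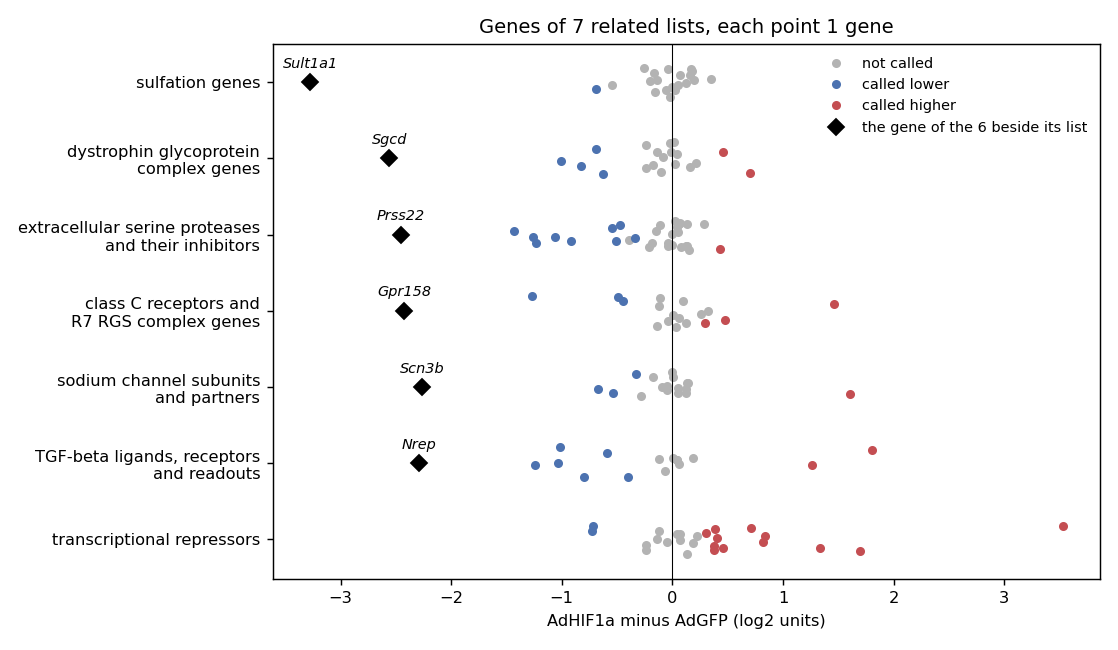
Difference between AdHIF1a and AdGFP (log2 units) for each measured gene of 7 lists, in blue where called lower, red where called higher and grey otherwise, with a black diamond for the gene of the 6 set beside its list. Each diamond lies to the left of every gene of its list, and the repressors hold 12 red points with Rcor2 at 3.53.

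Markers of other cells in the cultures were read beside the 6 genes, because in such bulk RNA fewer cells of a type and less RNA per cell cannot be told apart. Of 9 type I markers 8 fell, with a summed linear signal of 17010 to 23080 in AdGFP wells and 7621 to 12200 in AdHIF1a wells. Their median within-rat differences were -0.76, -1.26, -0.72 and -1.46, larger in rats 2 and 4 as for the 6 genes. All 2098 genes called lower had this order too (-0.46, -0.65, -0.49 and -0.71), so it is not particular to type I markers. The part of type I cells in the decreases was not tested. Of 9 type II markers 5 fell and 3 rose (3 fell without rat 1 or without rat 4), with summed signals of 16020 to 21810 and 16070 to 21360. The summed signal of 6 smooth muscle markers went from 814 to 1510 down to 309 to 381, which came mainly from Tagln (9.86 to 7.50). Of the 6 markers 1 was called lower, Tagln, and 1 higher, Synpo2 (0.58 ± 0.14, limma adjusted p = 0.0297). No marker of this list was called higher without rat 2 or without rat 4. Des differed by -0.65 ± 0.20 and was not called (limma adjusted p = 0.0641). Myh11 was low in both groups (4.88 and 5.04).

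Sgcd and Nrep are also transcripts of fibroblasts, and Gpr158 and Scn3b of neurons and neuroendocrine cells. None of 10 fibroblast markers was called; they summed to 302 to 322 in AdGFP and 283 to 299 in AdHIF1a wells, with Col1a1 at 5.86, Col3a1 at 5.33 and Pdgfra at 3.91 in AdGFP wells. Fbln1 alone of this list had an unadjusted p under 0.05 (limma adjusted p = 0.0651), and fits that left out the rat or treated it as a random block called 1 fibroblast marker lower. None of 9 neuroendocrine markers was called, with sums of 275 to 283 and 248 to 288, and Chga was at 5.06 and Syp at 5.52. Of these Resp18, Calca and Scg2 had an unadjusted p under 0.05 (limma adjusted p = 0.0904, 0.150 and 0.153), and quantile scaling or a random block called 1 lower. Prss22 is a gene of airway epithelium, and 6 airway secretory markers had sums of 6459 to 7408 and 5965 to 8239. Of these Bpifa1 rose by 0.49 ± 0.12 (limma adjusted p = 0.0240), while 0 markers rose without rat 2, 3 or 4 or without the block, and 2 rose without rat 1. Muc5b differed by -0.37 ± 0.12 (unadjusted p = 0.0176, limma adjusted p = 0.0751), and quantile or median scaling called 1 marker lower. Of 10 macrophage markers 3 fell and 0 rose. Without rat 1, 0 fell and 1 rose, and without rat 2, 1 fell. None fell without the block, with a random block or with the variance prior over all probe sets. Ptprc differed by -0.265 ± 0.10 and was not called (unadjusted p = 0.0279, limma adjusted p = 0.104). The sum of the macrophage markers was lowest in the AdHIF1a well of rat 1 (843, against 1374 to 2137 in the others). Of the remaining lists, 2 of 5 ciliated, 1 of 5 mesothelial, 0 of 6 endothelial and 0 of 6 lymphocyte markers were lower in limma. The mesothelial call was lost without the block. The ciliated calls were Tppp3 (9.18 to 7.95), which makes up most of the ciliated sum, and Ccdc39 (-0.485). The ciliary genes Dnah5 (-0.08) and Dnai1 (-0.05) had low control signals of 4.39 and 4.56 and were not called. Uncalled markers with an unadjusted p under 0.05 were the ciliated Rsph1 (-0.38), the mesothelial Msln (-0.34) and the lymphocyte markers Cd3e (-0.36) and Cd3g (-0.21), all below 0, and the endothelial Cdh5 (0.23), above 0.

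**Figure D5:**
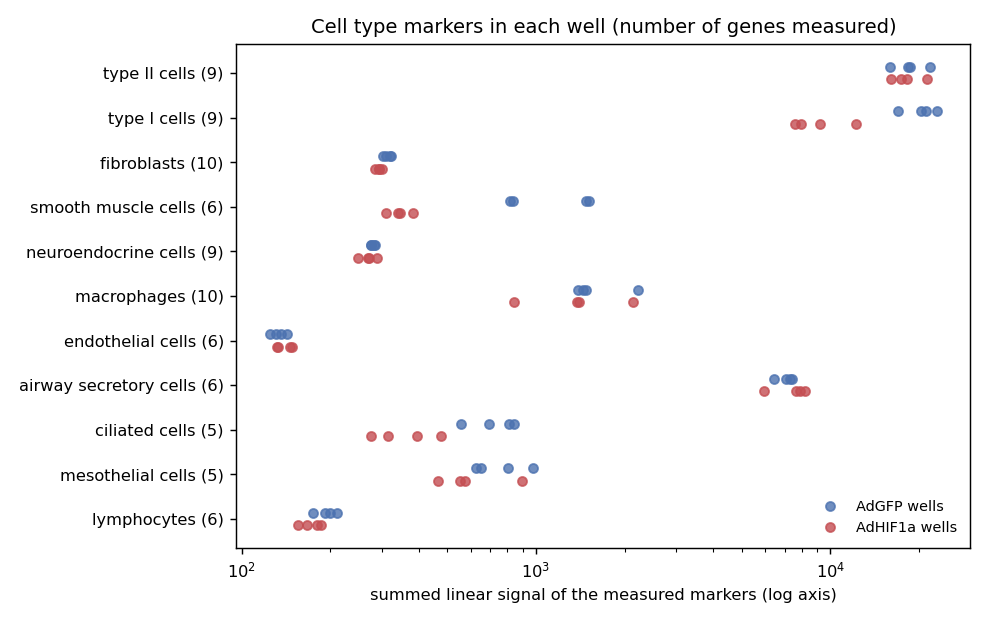
Summed linear signal of the measured markers of 11 cell types in each of the 8 wells, on a log axis, with AdGFP wells in blue and AdHIF1a wells in red. The sums of type I, smooth muscle, ciliated and, by a small margin, fibroblast markers are lower in all AdHIF1a wells than in any AdGFP well. The smooth muscle sum comes mainly from Tagln and the ciliated sum mainly from Tppp3, so these sums do not stand for each marker of their lists. Type II and airway secretory sums overlap between the groups.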

How the data were processed

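RNA from 8 wells of rat ATII cells was measured on Affymetrix arrays. The authors deposited log2 signals for 36685 probe sets, made with Affymetrix Expression Console per the submitters' processing notes; their range is that of log2 values, and the normalization method, version and build stay unstated (not given in the sources used here). No further scaling was applied here. If the unstated method had set the arrays to a common scale, a general shift of all transcripts would not be seen. The number of arrays limits the precision. Of the probe sets 18511 carried 1 gene symbol in the platform annotation, 575 several and 17599 none; for each gene the probe set with the highest mean was used (18166 genes).

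The paired test was limma 3.58.1 (R 4.3.3), two-sided, the rat being a fixed block, with Benjamini-Hochberg adjustment over the 18166 genes. The fit recovered shifts built into simulated arrays. There every gene had the same spread, and the shifts were larger than those of most called list genes. That check therefore does not measure how well smaller shifts or genes of uneven spread are called. The variance prior came from these genes, with all probe sets as an alternative added after the data were seen. The pairing comes from the series' design, and deviations of wells of the same rat correlated at 0.177 to 0.265 across genes (-0.22 to 0.077 for different rats). The members and lists were chosen with earlier results of these data known. Named were the 6 genes, the 3 genes inside and outside the 12 largest decreases, the 2 nearest patterns per gene, and in each list all called genes or the 3 with the smallest adjusted p per direction; others are said to be named after their values were seen, or given as relatives, partners and markers. A rule on protein identity was not used here, for want of protein sequences. Alternatives were no block, a random block, quantile and median scaling, a filter on dim genes, the mean of probe sets, a threshold of 0.01, a trended prior and the omission of each rat.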

Additional observations from a re-analysis of the deposited data

Results flagged for a closer look

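Of 147 groups of 4 values looked at for the named genes, 6 held a value that stood apart from the other 3, and chance flags about 1 in 20 groups. None was a value of Sult1a1, Sgcd, Prss22, Gpr158, Scn3b or Nrep.

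In the AdHIF1a wells, Tmprss4 was high in rat 1 (6.33, against 5.88 to 5.95 in the others), and Tgfbr1 was low in rat 4 (7.44, against 7.73 to 7.76). Among within-rat differences, Gprc5a fell least in rat 3 (-0.38, against -0.53 to -0.52). Rgs11 rose least in rat 1 (0.67, against 1.64 to 1.83), and Gnao1 in rat 4 (0.26, against 0.52 to 0.56). Hey1 fell most in rat 4 (-1.27, against -0.61 to -0.49).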

How the results depend on the processing

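Some alternatives cannot move the mean difference of a gene with 1 probe set. Each of the 6 genes was lower in all 4 rats, so omitting a rat could not change a sign. The differences of the 6 genes kept their sign under the 9 alternatives run for them. Without 1 rat each they ranged from -3.66 to -2.79 for Sult1a1, -2.77 to -2.33 for Sgcd, -2.57 to -2.29 for Prss22, -2.61 to -2.19 for Gpr158, -2.52 to -2.07 for Scn3b and -2.41 to -2.10 for Nrep. Sult1a1 ranked 1st in each of these fits, while Scn3b ranged from 9th to 15th, so its place among the 12 depended on the rats.

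Without the replicate block the list genes gave 27 lower and 16 higher, against 28 and 21 in the paired fit. Array centring lowered the higher list genes to 12 and all higher genes to 936, and the threshold of 0.01 gave 13 higher list genes and 1084 lower and 794 higher genes. The variance prior over all probe sets gave 1411 lower and 1032 higher genes. Without 1 rat each, list genes numbered 22 to 31 lower and 11 to 18 higher, and all genes 1196 to 2284 lower and 921 to 1519 higher. Of the 49 called list genes, 30 lost no call in the fits that tested them, none changed sign, and the filter on dim genes left some untested. The files hold no detection calls, so for signals below the array medians (AdHIF1a wells of Scn3b, Sgcd and Gpr158, and part of the list genes) a decrease may be understated.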
